A study of Arabidopsis thaliana with 16 samples.

Results

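Germinating seeds of Arabidopsis live on oil, and 35 genes of its breakdown were examined here among the 37336 loci counted in each library. They were chosen by locus identifier for their known roles: storage lipases, carriers of the peroxisomal membrane, enzymes that activate and oxidise fatty acids in the peroxisome, catalases, peroxisomal import and protease genes, and the enzyme that disposes of glycerol. Transcripts were sequenced at their 3′ ends (3'RNA-seq), so that a longer gene does not collect more of them. Levels of different genes are set side by side on that basis. Other differences between genes in capture or counting were not tested. Seeds of 2 genotypes, Col-0 (WT) and dog1-3 (SALK_000867, a T-DNA line of the dormancy gene DOG1), were placed 1 day after harvest on half-strength MS agar and kept for 72 h at 4°C, with 100 mM NaCl or without it (mock). The groups were dog1-3 NaCl, dog1-3 mock, WT NaCl and WT mock, with 4 biological replicates each, 16 libraries in all. A single mutant allele was used, whole seeds were sampled, so that embryo and endosperm are mixed, and lower RNA per cell cannot be told apart from fewer cells of a type. The study compared the genotypes to find out how far the response of seeds to salt depends on DOG1.

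Seed oil is triacylglycerol held in oil bodies. Lipases release fatty acids from it, an ABC transporter carries them into the peroxisome, acyl-CoA synthetases activate them, and each turn of beta-oxidation then passes through an acyl-CoA oxidase, a multifunctional protein and a thiolase, giving acetyl-CoA that feeds the glyoxylate cycle and, through it, sugar synthesis. The oxidases release hydrogen peroxide, which catalase removes, and the enzymes reach the peroxisome through the peroxin import machinery.

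Total counts ranged from 1416354 to 2416698 in dog1-3 NaCl, 1751431 to 2751027 in dog1-3 mock, 1725172 to 2086789 in WT NaCl and 2479170 to 3635844 in WT mock. Replicates differed by more than sampling noise, with a chi-square per degree of freedom between 1.53 and 7.04, the highest for WT mock replicates 2 and 4. DOG1, the disrupted gene, was low in every library labelled dog1-3, at 18.9 ± 3.04 CPM in dog1-3 NaCl against 145 ± 23.9 CPM in WT NaCl, and at 15.6 ± 2.30 CPM in dog1-3 mock against 80.5 ± 16.4 CPM in WT mock (CPM, counts scaled to TMM-adjusted library sizes; SD, n = 4 each). Reactions of mock and NaCl seeds were pooled separately, so that the effect of the pool cannot be told apart from that of salt. Seed marker genes (2 oleosins and 3 storage proteins) summed to 85326 ± 9190 CPM in dog1-3 NaCl, 65160 ± 5264 CPM in dog1-3 mock, 47028 ± 7811 CPM in WT NaCl and 38843 ± 9088 CPM in WT mock. Of these 5 genes, 3 rose with salt in dog1-3 and 2 in WT, and 4 were higher in dog1-3 than in WT in each treatment, while the storage protein gene CRB passed in no comparison. The 4 endosperm markers lay between 22870 and 29728 CPM in dog1-3 NaCl, 25877 and 34248 CPM in dog1-3 mock, 16677 and 24322 CPM in WT NaCl and 15093 and 21289 CPM in WT mock, nearly all of it from EPR1, whereas MAN6 stood below 1 CPM on average in every group. MAN7 was lower on average in NaCl than in mock, at 10.5 against 15.1 CPM in dog1-3 and 11.8 against 17.1 CPM in WT. EPR1 was lower on average in NaCl in dog1-3 (25836 against 30105 CPM) and higher in WT (20036 against 17580 CPM). In both genotypes the treatments overlapped, and neither difference had an adjusted p under 0.05. Between the genotypes EPR1 was higher in dog1-3, with log2FC of 0.78 in mock and 0.37 in NaCl, both with an adjusted p under 0.05. The 4 leaf markers summed to 848 to 1038 CPM in dog1-3 NaCl, 496 to 594 CPM in dog1-3 mock, 568 to 652 CPM in WT NaCl and 383 to 470 CPM in WT mock, mostly RBCS1A. LHCA4 was higher on average in NaCl than in mock in dog1-3 (12.5 against 9.50 CPM) and lower in WT (6.90 against 10.2 CPM). The part of these shifts in the results below was not tested.

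Of the 35 genes, 4 (AAE7, IBR3, LON2 and KAT1) passed both limits used here, 0.05 for the adjusted p and 1.5-fold for the change. Their upstream sequences are shown to place them: 250 bases before the annotated gene start, 5′ to 3′ on the gene's strand, from RefSeq's TAIR10.1. Capitals mark ACGTG or its reverse complement, the core of the element bound by ABA-responsive bZIP factors.

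AAE7, chr3:5775842-5776091, minus strand: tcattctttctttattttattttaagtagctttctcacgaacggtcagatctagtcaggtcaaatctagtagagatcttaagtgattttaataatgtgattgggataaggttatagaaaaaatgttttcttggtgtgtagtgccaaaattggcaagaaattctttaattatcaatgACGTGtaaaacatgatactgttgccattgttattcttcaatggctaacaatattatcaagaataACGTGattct
IBR3, chr3:2145993-2146242, plus strand: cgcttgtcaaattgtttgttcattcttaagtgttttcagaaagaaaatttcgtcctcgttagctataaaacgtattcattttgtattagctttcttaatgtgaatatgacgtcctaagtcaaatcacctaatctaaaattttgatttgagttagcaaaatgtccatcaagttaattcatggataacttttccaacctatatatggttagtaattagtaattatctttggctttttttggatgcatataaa
LON2, chr5:19098773-19099022, minus strand: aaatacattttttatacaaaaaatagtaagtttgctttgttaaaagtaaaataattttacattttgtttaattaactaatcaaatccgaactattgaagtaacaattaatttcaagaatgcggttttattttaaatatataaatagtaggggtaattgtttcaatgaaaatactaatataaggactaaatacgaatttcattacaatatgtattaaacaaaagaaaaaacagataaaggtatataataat
KAT1, chr1:1321635-1321884, plus strand: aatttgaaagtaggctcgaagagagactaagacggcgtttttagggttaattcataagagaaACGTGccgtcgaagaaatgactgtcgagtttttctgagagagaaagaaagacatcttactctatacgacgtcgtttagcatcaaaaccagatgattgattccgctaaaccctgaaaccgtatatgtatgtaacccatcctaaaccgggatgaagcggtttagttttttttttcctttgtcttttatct

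The AAE7 stretch holds 2 matches, the nearer of which ends 6 bases before the start, the KAT1 stretch holds 1, and those of IBR3 and LON2 hold none. Over the genes examined, 8 of 35 (22.9%) hold such a match, against 22.9% of the 27443 protein-coding stretches of the same length. The G-box CACGTG, which contains the core, occurs in 3 of 35 (8.57%) against 6.49% of all, and the RY element CATGCA (both strands) in 0 of 35 against 8.43% of all. A match is a description of the letters, not of a bound site.

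Levels of the 35 genes spread over a wide range. KAT2, the main thiolase, stood highest at 1933 CPM averaged over 16 libraries, the 45th level of all 12697 tested genes, followed by CAT3 at 1388 CPM, CAT2 at 1100 CPM and MFP2 at 786 CPM. These 4 genes made up 69.9% of the summed level of the 35. At the other end, ACX5 (AT2G35690) stood at 4.57 CPM and BOU at 5.81 CPM. KAT5 (AT5G48880), a thiolase, and ACX6 (AT1G06310), an acyl-CoA oxidase, were counted at 1 to 15 and 0 to 3 reads per library and did not pass the filter on low counts, which left 33 genes tested. ACX6 had 0 reads in all 4 dog1-3 mock libraries, which allows up to 3 reads per library. Summed over the 35, the level was 8042 ± 502 CPM in dog1-3 NaCl, 6772 ± 279 CPM in dog1-3 mock, 8078 ± 381 CPM in WT NaCl and 6915 ± 492 CPM in WT mock (SD, n = 4 each). This sum depends on the TMM scaling. Of each library's unscaled total counts, the 35 held 0.701% ± 0.0305 in dog1-3 NaCl and 0.667% ± 0.0199 in dog1-3 mock. In WT they held 0.825% ± 0.0275 in NaCl and 0.765% ± 0.0407 in mock, so that dog1-3 was lower on average in both treatments. The sums and shares were not tested.

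The response to salt was examined in each genotype with edgeR's quasi-likelihood test, with the p-values adjusted over all 12697 tested genes. A gene is said here to have risen or fallen where its adjusted p was under 0.05, and to have been called where it also changed by more than 1.5-fold. In dog1-3, 10 of the 33 genes rose and 2 fell with salt (30.3% and 6.06%), where 15.3% and 13.5% of all tested genes did. In WT, 15 rose and 1 fell (45.5% and 3.03%), where 18.9% and 16.5% of all did. The changes were small. Only LON2 was called up and KAT1 down in dog1-3, against 7.53% and 7.16% of all genes, and only IBR3 was called up and KAT1 down in WT, against 9.46% and 7.07%. The median log2FC over the 33 genes was 0.16 in dog1-3, where that of all genes was -0.02, and 0.18 in WT, where that of all genes was -0.0019. Of the genes that rose or fell in the 2 genotypes, 9 rose in both and KAT1 fell in both. How many of all tested genes did so in both was not counted, so this overlap has no background beside it.

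**Figure D1:**
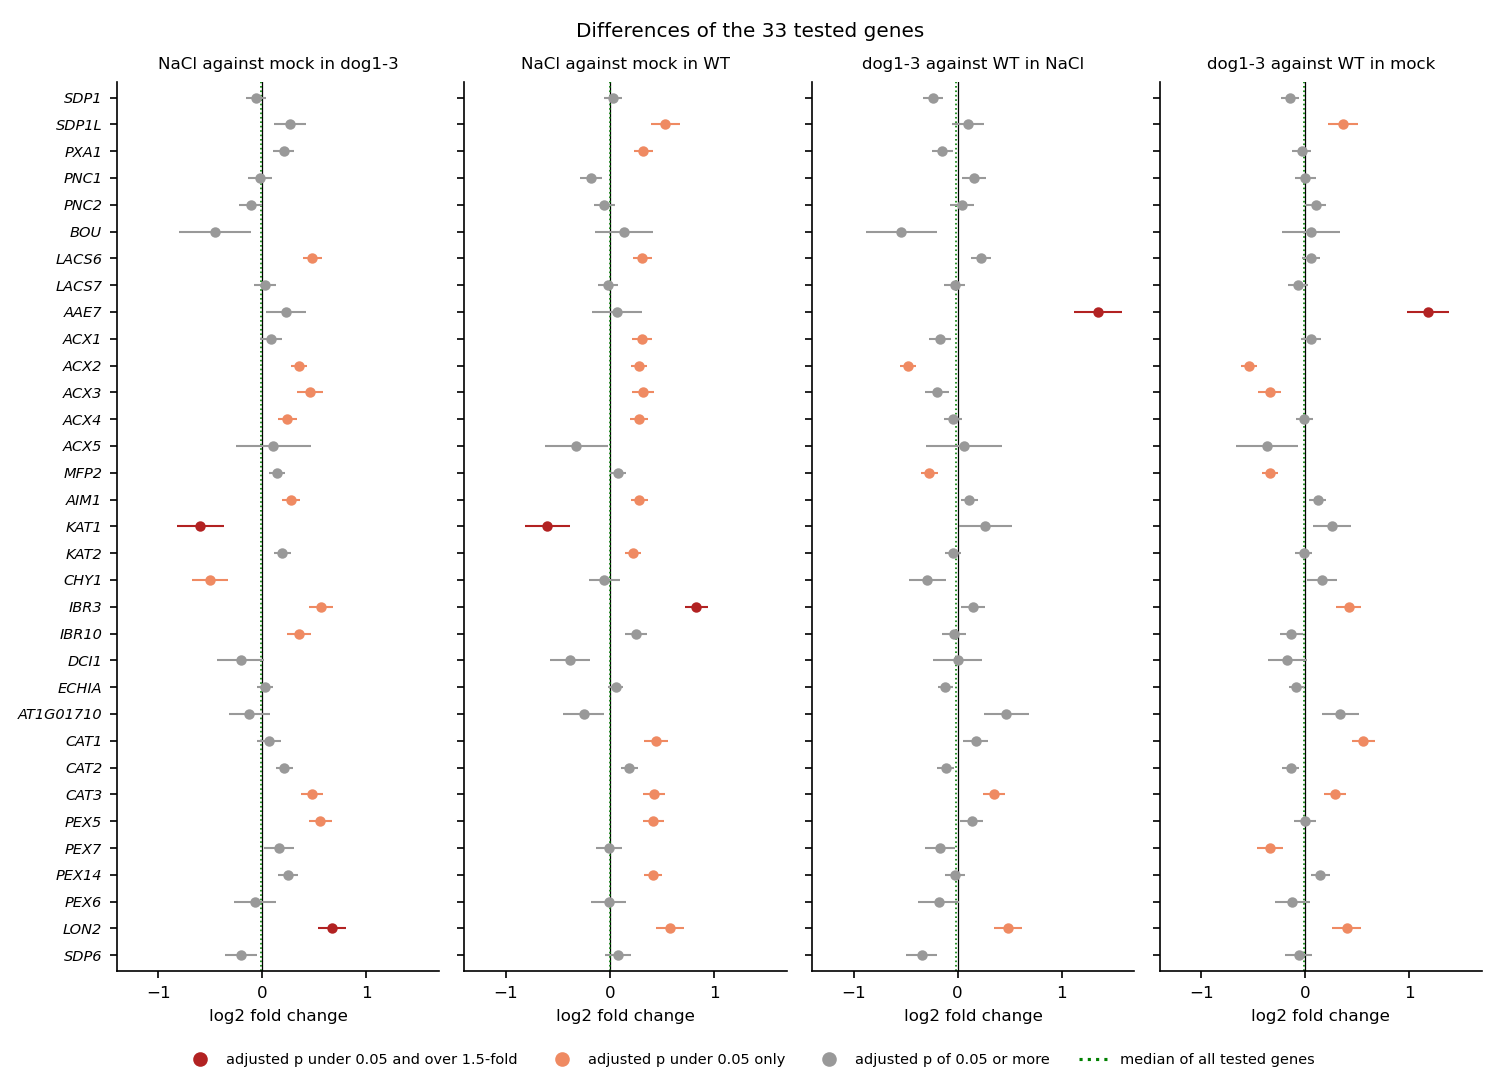
Log2 fold change of the 33 tested genes (points, with their standard errors as bars) for NaCl against mock in dog1-3 and in WT, and for dog1-3 against WT in NaCl and in mock, with 4 libraries per group. With salt most points lie right of 0, with a median of 0.16 in dog1-3 and 0.18 in WT, and in the genotype comparisons AAE7 lies far to the right of the others.

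The scaling of the libraries bears on changes of this size. When libraries were scaled by their totals alone, the median log2FC of all genes moved to -0.19 for salt in dog1-3, -0.12 for salt in WT, -0.25 for dog1-3 against WT in NaCl and -0.18 in mock. The median of the 33 genes then was -0.01 for salt in dog1-3, a change of sign, and 0.07 for salt in WT. Relative to all genes it was higher by 0.18 in dog1-3 and 0.19 in WT under both scalings. A change of scaling moves all genes by nearly the same amount, so this agreement is no check of the rise. The genes that rose with salt became 5 in dog1-3 and 7 in WT, and those that fell became 3 in each. Of all 12697 tested genes, 1080 rose and 3203 fell in dog1-3 with this scaling, and 1661 and 3161 did in WT. The rises of PXA1, LACS6 and ACX1 in WT were among those lost. Statements below that a gene did not pass refer to TMM scaling. Over all genes, the share of calls that were upward was 51.3% with TMM and 21.7% with totals for salt in dog1-3, and 57.2% and 35% in WT.

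Of the lipases, SDP1 (AT5G04040), which starts the release of fatty acids from stored oil, passed the test in no comparison with TMM scaling. It stood at 91.0, 123, 131 and 113 CPM in dog1-3 NaCl, at 118, 115, 126 and 117 CPM in dog1-3 mock, at 141, 135, 142 and 118 CPM in WT NaCl and at 138, 128, 131 and 127 CPM in WT mock. Its 4 dog1-3 mock libraries were below all 4 WT mock libraries, and in NaCl the genotypes overlapped. The log2FC with salt was -0.06 (standard error 0.10) in dog1-3 and 0.03 (0.09) in WT, and dog1-3 against WT gave -0.24 (0.10, adjusted p = 0.0588) in NaCl and -0.14 (0.09, adjusted p = 0.217) in mock by edgeR's quasi-likelihood test. With libraries scaled by totals, the same test placed SDP1 lower in dog1-3, at -0.47 in NaCl (adjusted p = 0.000121) and -0.32 in mock (adjusted p = 0.00355). Its close homologue SDP1L (AT3G57140), at 29.8 ± 2.74 CPM in dog1-3 NaCl, 24.4 ± 2.50 CPM in dog1-3 mock, 27.8 ± 1.79 CPM in WT NaCl and 18.8 ± 3.95 CPM in WT mock, rose with salt in WT (log2FC 0.53, standard error 0.14) and was higher in dog1-3 than in WT in mock (log2FC 0.36, standard error 0.14, adjusted p = 0.0455). The genotype difference was lost under 9 of 14 alternatives, among them DESeq2.

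Of the carriers, PXA1 (AT4G39850), the ABC transporter that takes fatty acids into the peroxisome, stood at 79.3, 75.1, 80.8 and 80.0 CPM in dog1-3 NaCl, at 66.0, 72.0, 70.4 and 64.0 CPM in dog1-3 mock, at 93.3, 86.6, 90.0 and 79.5 CPM in WT NaCl and at 73.8, 68.9, 78.0 and 59.8 CPM in WT mock. In both genotypes every NaCl library lay above every mock library. The log2FC with salt was 0.21 in dog1-3 (standard error 0.10, adjusted p = 0.124, quasi-likelihood test of edgeR) and 0.32 in WT (0.09, adjusted p = 0.00526), and the interaction was -0.11 (standard error 0.14). PNC1 (AT3G05290) and PNC2 (AT5G27520), the peroxisomal ATP carriers, and BOU (AT5G46800), a mitochondrial carrier, did not pass in any comparison, with log2FC between -0.54 and 0.16.

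LACS6 (AT3G05970) and LACS7 are the peroxisomal long-chain acyl-CoA synthetases. LACS6 stood at 149 ± 13.6 CPM in dog1-3 NaCl, 107 ± 11.6 CPM in dog1-3 mock, 128 ± 9.20 CPM in WT NaCl and 103 ± 9.05 CPM in WT mock. It rose with salt in dog1-3 (log2FC 0.48, standard error 0.09) and in WT (0.31, standard error 0.09), and the NaCl libraries lay above the mock libraries in both. LACS7 (AT5G27600) did not pass in any comparison (log2FC between -0.07 and 0.03).

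AAE7 (AT3G16910), the peroxisomal acetyl-CoA synthetase that activates acetate, had the largest fold between the genotypes among the 33 tested genes, in NaCl and in mock. It stood at 22.5, 25.5, 21.0 and 22.7 CPM in dog1-3 NaCl against 9.71, 14.6, 6.26 and 4.50 CPM in WT NaCl, and at 13.8, 21.6, 22.3 and 19.4 CPM in dog1-3 mock against 10.1, 8.40, 7.88 and 8.23 CPM in WT mock. Every dog1-3 library lay above every WT library of the same treatment. The log2FC was 1.35 in NaCl (standard error 0.23, adjusted p = 1.02e-05) and 1.18 in mock (standard error 0.20, adjusted p = 8.68e-06; edgeR's quasi-likelihood test), on 26 to 58 reads per dog1-3 library and 9 to 34 per WT library. It was called under every alternative tried, with log2FC between 1.12 and 1.73 in NaCl and between 1.01 and 1.29 in mock. Salt gave log2FC of 0.23 in dog1-3 and 0.07 in WT, neither past the test. AAE7 overlaps AT3G16900 on the opposite strand in the annotation, a locus at 0 reads in all 16 libraries.

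**Figure D2:**
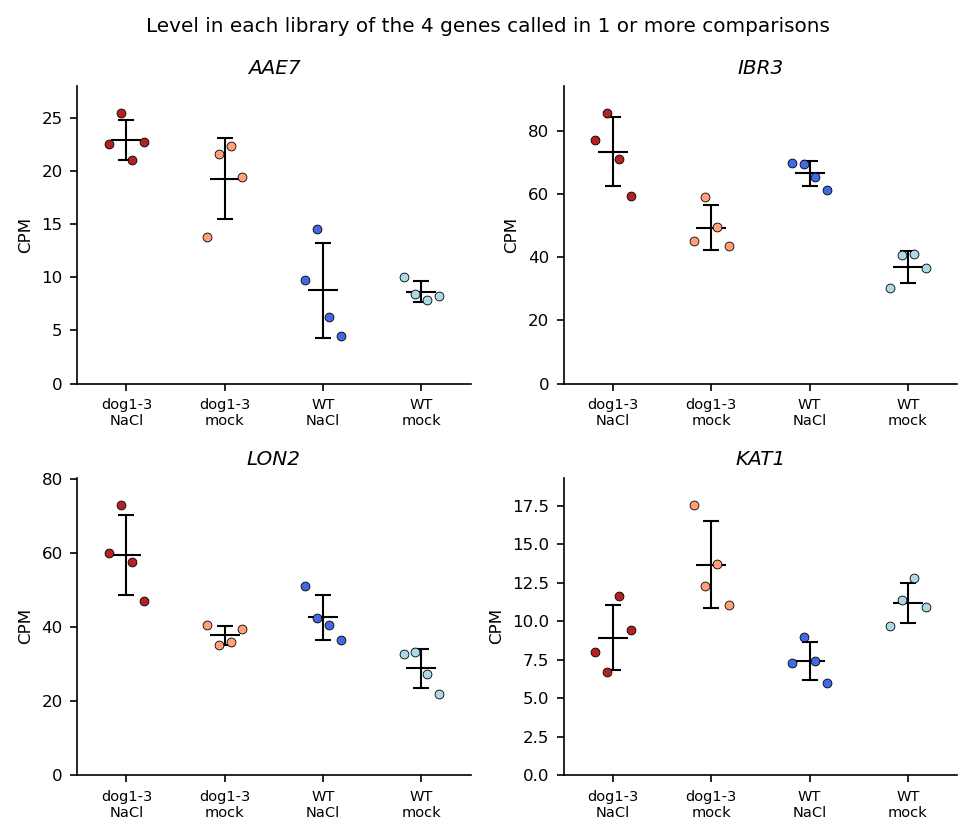
CPM in each library (points) with mean and SD (bars, n = 4) of AAE7, IBR3, LON2 and KAT1 in the 4 groups, on axes that start at 0. AAE7 is higher in dog1-3 than in WT in both treatments, IBR3 and LON2 are higher in NaCl than in mock in both genotypes, and KAT1 is lower in NaCl than in mock in both.

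The acyl-CoA oxidases take the first step of each turn, and differ in the chain length they prefer. With salt, 3 of the 5 tested rose in dog1-3 (ACX2, ACX3, ACX4) and 4 in WT (ACX1 (AT4G16760), ACX2, ACX3, ACX4), and none fell, where 15.3% of all genes rose in dog1-3 and 18.9% in WT. The rise of ACX4 was lost under 8 of 14 alternatives in dog1-3, among them DESeq2, and under 2 of 14 in WT. ACX2 (AT5G65110), the long-chain oxidase and the highest of the family, stood at 245, 270, 264 and 286 CPM in dog1-3 NaCl, 194, 210, 226 and 203 CPM in dog1-3 mock, 379, 354, 376 and 365 CPM in WT NaCl and 326, 311, 285 and 293 CPM in WT mock. Within a genotype the NaCl libraries lay above the mock libraries, and within a treatment the dog1-3 libraries lay below the WT libraries. The log2FC with salt was 0.35 in dog1-3 (standard error 0.08, adjusted p = 0.000779 by the quasi-likelihood test of edgeR) and 0.28 in WT (standard error 0.07, adjusted p = 0.00268). Against WT, dog1-3 was lower by a log2FC of -0.47 in NaCl (standard error 0.08, adjusted p = 6.22e-06) and -0.54 in mock (standard error 0.08, adjusted p = 2.71e-07), a fold of less than 1.5 in both; with libraries scaled by totals ACX2 was called down in both, at -0.70 in NaCl and -0.72 in mock, and its rise with salt was lost in dog1-3 (adjusted p = 0.0857) and in WT (adjusted p = 0.0811, edgeR's quasi-likelihood test). ACX3 (AT1G06290), the medium-chain oxidase, was also lower in dog1-3 in mock (log2FC -0.34, standard error 0.11, adjusted p = 0.0156, lost without WT mock replicate 1 at adjusted p = 0.0627), whereas NaCl gave -0.20. Its rise with salt was lost in both genotypes with libraries scaled by totals, and in WT also under DESeq2 and without WT mock replicate 4 or WT NaCl replicate 1. Of the 251 stretches of 50 bases in the last 300 bases of the ACX3 transcript, 55 occur elsewhere in the genome, which leaves part of its reads uncertain; no other gene of the 35 had any.

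Given as shares of the family's counts, ACX2 held 46.1% ± 0.438 in dog1-3 NaCl, 44.3% ± 1.67 in dog1-3 mock, 52.3% ± 1.17 in WT NaCl and 52.4% ± 1.82 in WT mock (SD, n = 4 each). ACX4 (AT3G51840), the short-chain oxidase, held 24.0% ± 1.98 in dog1-3 NaCl, 24.9% ± 1.62 in dog1-3 mock, 20.3% ± 2.24 in WT NaCl and 20.3% ± 0.911 in WT mock. The level of ACX4 itself did not pass between the genotypes with TMM scaling, with log2FC of -0.04 in NaCl and -0.0077 in mock. The ranges of ACX2 did not overlap between the genotypes in either treatment, and those of NaCl and mock overlapped in both genotypes.

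**Figure D3:**
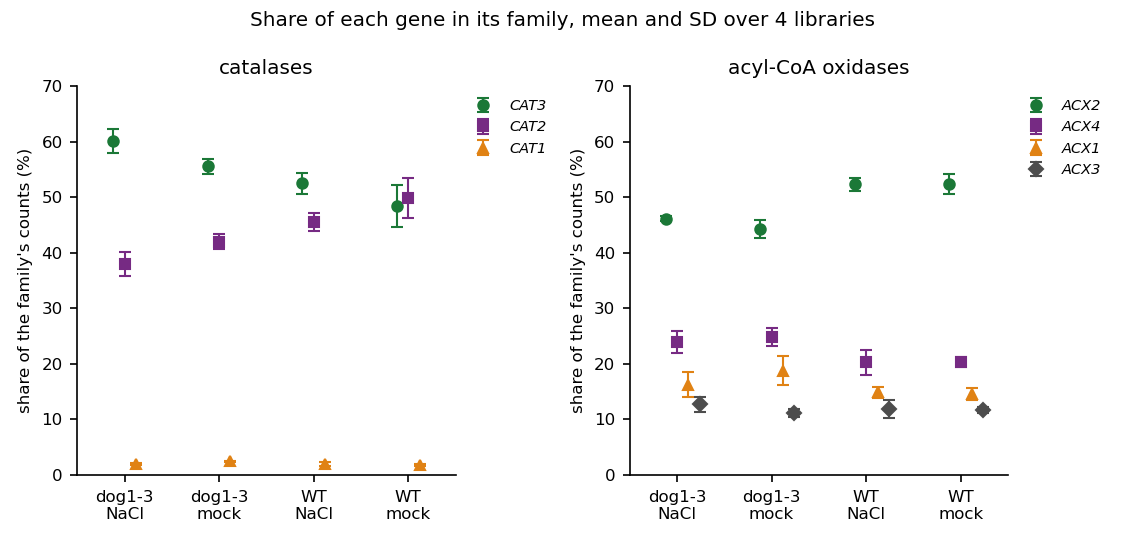
Mean share (points) and SD (bars, n = 4) of single genes in the summed counts of the catalases and of the acyl-CoA oxidases, in percent, in the 4 groups. CAT3 holds 60.1% in dog1-3 NaCl and 48.4% in WT mock, and ACX2 holds less in dog1-3 than in WT in both treatments.

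The multifunctional proteins carry the hydratase and dehydrogenase steps. MFP2 (AT3G06860), the one that prevails in seedlings, was lower in dog1-3, at 658, 731, 791 and 772 CPM in dog1-3 NaCl against 930, 858, 868 and 905 CPM in WT NaCl, and at 637, 634, 645 and 758 CPM in dog1-3 mock against 870, 884, 828 and 803 CPM in WT mock. No dog1-3 library reached a WT library of the same treatment. The log2FC was -0.27 in NaCl (standard error 0.08, adjusted p = 0.00795; 0.0529 without dog1-3 NaCl replicate 1) and -0.34 in mock (standard error 0.08, adjusted p = 0.000619; edgeR's quasi-likelihood test). With salt the log2FC was 0.14 in dog1-3 and 0.07 in WT, neither past the test. AIM1 (AT4G29010), the paralogue, rose with salt in dog1-3 (log2FC 0.27) and in WT (0.28). Both rises were lost with libraries scaled by totals, and the one in dog1-3 also without dog1-3 mock replicate 3 or dog1-3 NaCl replicate 3. Its share of the pair was 18.1% ± 0.732 in dog1-3 NaCl, 16.8% ± 1.3 in dog1-3 mock, 14.5% ± 1.11 in WT NaCl and 12.8% ± 0.754 in WT mock (SD, n = 4 each). The level of AIM1 itself did not pass between the genotypes, with log2FC of 0.11 in NaCl and 0.12 in mock. AIM1 overlaps AT4G29000 on the opposite strand. That locus stood at 14.6 CPM in dog1-3 NaCl against 11.2 CPM in dog1-3 mock, and at 12.9 CPM in WT NaCl against 8.31 CPM in WT mock. Whether its reads enter the counts of AIM1 was not tested.

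**Figure D4:**
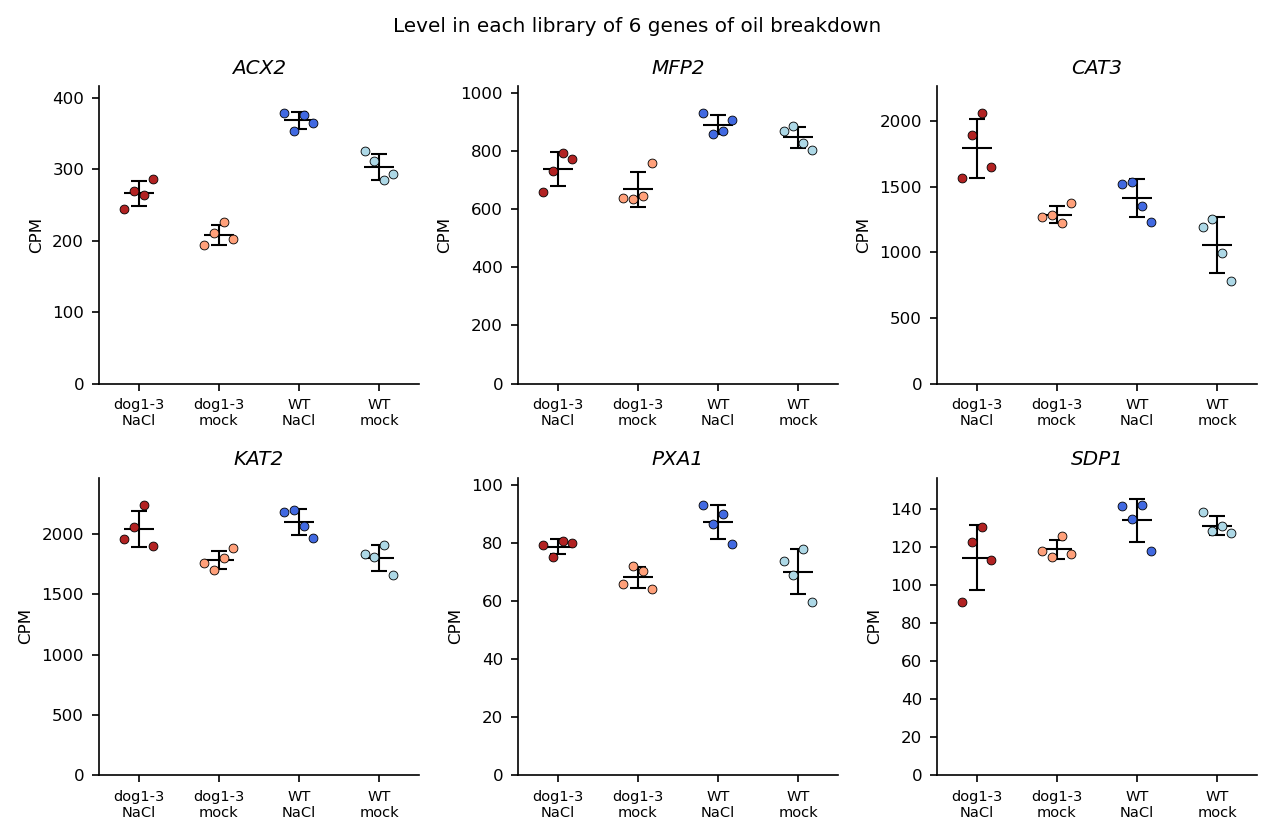
CPM in each library (points) with mean and SD (bars, n = 4) of ACX2, MFP2, CAT3, KAT2, PXA1 and SDP1 in the 4 groups, on axes that start at 0. ACX2 and MFP2 are lower in dog1-3 than in WT, CAT3 is highest in dog1-3 NaCl, and SDP1 overlaps between NaCl and mock in both genotypes.

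Thiolase transcripts were almost wholly those of KAT2 (AT2G33150), which held between 98.9% and 99.6% of the counts of the 3 thiolase genes in every library. KAT2 stood at 1957, 2056, 2245 and 1903 CPM in dog1-3 NaCl, at 1761, 1700, 1798 and 1884 CPM in dog1-3 mock, at 2182, 2197, 2068 and 1964 CPM in WT NaCl and at 1838, 1809, 1911 and 1657 CPM in WT mock. In both genotypes the NaCl libraries lay above the mock libraries. The log2FC with salt was 0.19 in dog1-3 (standard error 0.08, adjusted p = 0.0645) and 0.22 in WT (standard error 0.08, adjusted p = 0.0263; edgeR's quasi-likelihood test), the one in WT lost without WT mock replicate 4, WT NaCl replicate 1 or WT NaCl replicate 2, and with libraries scaled by totals or without the filter on low counts. Between the genotypes KAT2 did not pass the test, with log2FC of -0.04 in NaCl and -0.01 in mock.

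KAT1 (AT1G04710), a minor thiolase, fell with salt. It stood at 7.97, 6.71, 11.6 and 9.41 CPM in dog1-3 NaCl against 17.6, 12.3, 13.7 and 11.02 CPM in dog1-3 mock, and at 7.29, 8.95, 7.40 and 6.0 CPM in WT NaCl against 9.69, 11.4, 12.8 and 10.9 CPM in WT mock. In WT the treatments did not overlap, and in dog1-3 they did. The log2FC was -0.60 in dog1-3 (standard error 0.23, adjusted p = 0.0428) and -0.60 in WT (standard error 0.21, adjusted p = 0.0246; edgeR's quasi-likelihood test), both just past the fold limit of 0.585 on the log2 scale. The call rests on 10 to 52 reads per library. It was lost under DESeq2 in both genotypes, in WT without WT mock replicate 3, WT NaCl replicate 1 or WT NaCl replicate 4, and in dog1-3 without the filter on low counts or without dog1-3 mock replicates 1 or 3 or dog1-3 NaCl replicates 1, 2 or 4.

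Among the auxiliary enzymes, IBR3 (AT3G06810), an acyl-CoA dehydrogenase-like protein known from the conversion of indole-3-butyric acid to auxin, changed most with salt. It stood at 77.4, 85.8, 71.4 and 59.6 CPM in dog1-3 NaCl against 45.3, 59.3, 49.8 and 43.6 CPM in dog1-3 mock, and at 69.9, 69.7, 65.5 and 61.5 CPM in WT NaCl against 30.2, 40.7, 41.1 and 36.5 CPM in WT mock. No NaCl library overlapped the mock libraries of its genotype. The log2FC was 0.56 in dog1-3 (standard error 0.12, adjusted p = 0.000357), under the fold limit, and 0.83 in WT (standard error 0.11, adjusted p = 2.53e-07; edgeR's quasi-likelihood test), called under every alternative. The interaction was -0.27 (standard error 0.16, adjusted p = 0.820), so that the salt responses were not shown to differ. In mock IBR3 was also higher in dog1-3 (log2FC 0.42, adjusted p = 0.00480), a difference lost with libraries scaled by totals and without dog1-3 mock replicate 2. It overlaps AT3G06820 on the opposite strand, at 11.1 ± 2.88 CPM in dog1-3 NaCl, 14.9 ± 2.60 CPM in dog1-3 mock, 10.8 ± 2.51 CPM in WT NaCl and 14.1 ± 1.32 CPM in WT mock. Whether the counting separated the strands is not given in the sources used here.

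IBR10 (AT4G14430), an enoyl-CoA isomerase, rose with salt in dog1-3 (log2FC 0.35, standard error 0.12; lost with libraries scaled by totals and without dog1-3 mock replicate 1 or dog1-3 NaCl replicate 3) and gave 0.25 (0.10, adjusted p = 0.0568 by the quasi-likelihood test of edgeR) in WT. CHY1 (AT5G65940), a hydrolase of valine breakdown, fell with salt in dog1-3 (log2FC -0.50, standard error 0.17; lost under DESeq2 and without dog1-3 mock replicate 1 or 2 or dog1-3 NaCl replicate 3 or 4) and gave -0.06 in WT. The differences between the genotypes in these responses were 0.10 (standard error 0.16) for IBR10 and -0.45 (0.23, adjusted p = 0.775) for CHY1. DCI1 (AT5G43280), ECHIA (AT4G16210) and AT1G01710, a dienoyl-CoA isomerase, an enoyl-CoA hydratase-like protein and an acyl-CoA thioesterase, did not pass in any comparison.

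Catalases remove the hydrogen peroxide of the oxidases. CAT3 (AT1G20620) rose with salt in both genotypes and was higher in dog1-3 in both treatments. It stood at 1570, 1896, 2063 and 1654 CPM in dog1-3 NaCl, 1270, 1284, 1226 and 1374 CPM in dog1-3 mock, 1525, 1535, 1353 and 1233 CPM in WT NaCl and 1190, 1255, 995 and 783 CPM in WT mock. The log2FC with salt was 0.48 in dog1-3 (standard error 0.10) and 0.42 in WT (standard error 0.10), and dog1-3 against WT gave 0.35 in NaCl (standard error 0.10, adjusted p = 0.0104) and 0.29 in mock (standard error 0.10, adjusted p = 0.0283; edgeR's quasi-likelihood test). The genotype differences were lost with library totals, in NaCl also without dog1-3 NaCl replicate 3, and in mock also under DESeq2 and without WT mock replicate 3 or 4 or dog1-3 mock replicate 1 or 4. CAT1 (AT1G20630), the lowest of the 3, was higher in dog1-3 than in WT in mock (56.5 ± 2.50 against 38.5 ± 3.08 CPM; log2FC 0.56, adjusted p = 0.000118). It rose with salt in WT (log2FC 0.45) and not in dog1-3 (0.06), a difference of -0.38 with an adjusted p of 0.706 from edgeR's quasi-likelihood test, the only one of the 33 interactions with an unadjusted p under 0.05. Of all 12697 tested genes, 826 had such an interaction. CAT2 (AT4G35090) did not pass in any comparison. Its share of the family's counts was 37.9% ± 2.10 in dog1-3 NaCl, 42.0% ± 1.33 in dog1-3 mock, 45.5% ± 1.65 in WT NaCl and 49.8% ± 3.61 in WT mock (SD, n = 4 each). CAT2 overlaps AT4G35080 on the opposite strand, at 20.4 ± 0.910 CPM in dog1-3 NaCl and 38.1 ± 6.62 CPM in WT mock.

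The peroxisomal import and protease genes rose with salt in part. PEX5 (AT5G56290), the receptor for the most common peroxisomal signal, stood at 75.3 ± 6.27 CPM in dog1-3 NaCl against 51.5 ± 7.07 CPM in dog1-3 mock, and at 69.1 ± 6.59 CPM in WT NaCl against 52.0 ± 4.82 CPM in WT mock (log2FC 0.56, standard error 0.11, and 0.42, standard error 0.10). PEX14 (AT5G62810), its docking partner, rose in WT (log2FC 0.41) and missed the limit in dog1-3 (0.25, adjusted p = 0.0527 by the quasi-likelihood test of edgeR). PEX7 (AT1G29260), the receptor for the second type of signal, was lower in dog1-3 in mock (log2FC -0.34, adjusted p = 0.0367), a difference lost under 6 of 14 alternatives, and PEX6 (AT1G03000), an ATPase that recycles PEX5, did not pass in any.

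LON2 (AT5G47040), a peroxisomal protease, rose with salt and was higher in dog1-3. It stood at 60.0, 73.1, 57.6 and 47.1 CPM in dog1-3 NaCl, 40.5, 35.1, 36.1 and 39.4 CPM in dog1-3 mock, 51.0, 42.4, 40.4 and 36.5 CPM in WT NaCl and 32.8, 33.3, 27.3 and 22.0 CPM in WT mock. In each genotype the NaCl libraries lay above the mock libraries. The log2FC with salt was 0.67 in dog1-3 (standard error 0.14, adjusted p = 0.000238) and 0.58 in WT (standard error 0.13, adjusted p = 0.000710), just under the fold limit of 0.585. The comparison of dog1-3 with WT gave 0.48 in NaCl (standard error 0.13, adjusted p = 0.00495) and 0.40 in mock (standard error 0.14, adjusted p = 0.0201; edgeR's quasi-likelihood test). The salt call in dog1-3 was lost with library totals and without dog1-3 NaCl replicate 2, and LON2 was called in WT without WT mock replicate 1, WT mock replicate 2, WT NaCl replicate 3 or WT NaCl replicate 4. The genotype differences were lost with library totals, and in mock also under DESeq2 and without WT mock replicate 4 or dog1-3 mock replicate 1 or 4. SDP6 (AT3G10370), the mitochondrial glycerol-3-phosphate dehydrogenase that takes up the glycerol backbone, did not pass in any comparison.

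Between the genotypes, 3 of the 33 genes were higher and 2 lower in dog1-3 in NaCl (9.09% and 6.06%), where 15% and 13.6% of all genes were, and 6 were higher and 4 lower in mock (18.2% and 12.1%), where 18.5% and 16.9% of all were. Both comparisons held 1 gene called up, AAE7, and 0 called down, against 8.16% and 7.54% of all genes in NaCl and 9.94% and 8.44% in mock. The median log2FC of the 33 was -0.03 in NaCl, where that of all genes was -0.02, and -0.0065 in mock, where that of all genes was -0.0089. With libraries scaled by totals, 1 gene was higher and 15 lower in dog1-3 in NaCl, and 2 were higher and 9 lower in mock. Of all 12697 tested genes, 982 were then higher and 3793 lower in NaCl, and 1419 and 3728 in mock. The median of the 33 was -0.26 in NaCl and -0.18 in mock, where that of all genes was -0.25 and -0.18. With TMM scaling, AAE7, CAT3 and LON2 were higher and ACX2 and MFP2 lower in both treatments, an overlap not counted over all genes. For the salt-by-genotype interaction, 0 of the 33 passed with edgeR's quasi-likelihood test and 0 with DESeq2, against 0.00788% of all genes. An unadjusted p under 0.05 was found for 1 of the 33 and for 826 of all 12697. Comparisons that share a group, such as salt in WT and genotype in mock, rest in part on the same libraries.

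Neighbouring parts of the pathway were read from lists of 18 other peroxins, 18 other peroxisomal and oil mobilization enzymes (17 tested) and 5 genes of the glyoxylate cycle and gluconeogenesis. GLI1, the glycerol kinase that acts just before SDP6, was lower in dog1-3 in both treatments, at 56.8, 41.6, 47.6 and 58.8 CPM in dog1-3 NaCl against 116, 113, 106 and 132 CPM in WT NaCl, and at 63.4, 54.1, 59.0 and 58.3 CPM in dog1-3 mock against 147, 123, 132 and 141 CPM in WT mock. The genotypes did not overlap in either treatment, and the log2FC was -1.19 in NaCl (standard error 0.11, adjusted p = 1.90e-11) and -1.21 in mock (standard error 0.10, adjusted p = 3.30e-13; edgeR's quasi-likelihood test). ECI3, an enoyl-CoA isomerase annotated as cytosolic, was called down with salt in dog1-3 (log2FC -1.16) and in WT (-0.70) and in dog1-3 against WT in NaCl (-1.5) and in mock (-1.04). PMDH2, a peroxisomal malate dehydrogenase, was called down with salt in WT (log2FC -1.26) and in dog1-3 against WT in mock (-0.67), on means of 3.5 CPM in dog1-3 NaCl, 4.88 CPM in dog1-3 mock, 3.15 CPM in WT NaCl and 7.66 CPM in WT mock. Its genotype difference in mock was lost under 8 of 14 alternatives. Of these enzymes, 2 rose and 4 fell with salt in dog1-3, 1 rose and 5 fell in WT, 1 was higher and 4 lower in dog1-3 in NaCl, and 1 was higher and 6 lower in mock. These are 11.8% and 23.5% for salt in dog1-3, where 15.3% and 13.5% of all genes rose and fell, 5.88% and 29.4% in WT, where 18.9% and 16.5% did, 5.88% and 23.5% in NaCl, where 15% and 13.6% of all were higher and lower, and 5.88% and 35.3% in mock, where 18.5% and 16.9% were.

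Of the other peroxins, 4 rose and 1 fell with salt in dog1-3, 5 rose and 1 fell in WT, and in dog1-3 against WT 4 were higher and 2 lower in each treatment. In percent, 22.2% rose and 5.56% fell in dog1-3, where 15.3% and 13.5% of all genes did, 27.8% and 5.56% in WT, where 18.9% and 16.5% did, and 22.2% were higher and 11.1% lower in dog1-3 in each treatment, where 15% and 13.6% of all were in NaCl and 18.5% and 16.9% in mock. PEX19A, an import receptor for membrane proteins, was called up in dog1-3 in NaCl (97.1 ± 8.01 against 58.3 ± 8.04 CPM; log2FC 0.73, adjusted p = 1.68e-06) and in mock (73.0 ± 11.3 against 45.4 ± 3.03 CPM; log2FC 0.69, adjusted p = 1.84e-06, edgeR's quasi-likelihood test). PEX11A and PEX11E, peroxisome division factors, were called down in dog1-3 in mock (log2FC -0.83 and -0.62). In the glyoxylate cycle, ICL, isocitrate lyase, stood at 7323 CPM in dog1-3 NaCl against 5284 CPM in dog1-3 mock, and at 7671 CPM in WT NaCl against 6553 CPM in WT mock. ICL rose with salt in dog1-3 (log2FC 0.47) and was lower in dog1-3 than in WT in mock (-0.31), MLS, malate synthase, rose in dog1-3 (0.37, lost with libraries scaled by totals) and WT (0.33), and PCK1, the enzyme that opens sugar synthesis from oil, was lower in dog1-3 in NaCl (-0.29) and mock (-0.38), all under 1.5-fold. Not all of the 5 went down: in NaCl 1 was higher and 1 lower in dog1-3 (20% each, where 15% and 13.6% of all genes were). CSY3 stood at 1147 ± 77.5 CPM in dog1-3 NaCl and 948 ± 81.3 CPM in WT NaCl. In mock 0 were higher and 2 lower (40%, where 16.9% of all were). With salt 2 rose in dog1-3 (40%, against 15.3% of all) and 1 in WT (20%, against 18.9%), and 0 fell.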

How the data were processed

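3'RNA-seq libraries were made from 16 seed samples in 4 groups, which were taken from the sample labels with their replicate numbers. The authors primed RNA with barcoded oligo(dT), pooled mock and NaCl reactions separately, and deposited raw read counts for each of 37336 loci per library. The submitters' processing notes name STAR 2.7.8a, DESeq2 and TAIR10. The counting program, the use of strand and the handling of molecular identifiers are not given in the sources used here. Errors and p-values cover the spread between libraries, and counting limits cover counting error only.

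Tests were run with edgeR 4.0.16 in R 4.3.3 (TMM scaling, filterByExpr with a minimum count of 10, quasi-likelihood F test, one model with 4 group means over 16 libraries), with Benjamini-Hochberg adjustment and limits of 0.05 and 1.5-fold. Standard errors are the log2FC divided by the square root of F. CPM use TMM-scaled library sizes. The depth of 1416354 counts in the smallest library limits genes with few reads, and the detection limit was set at 3 counts. The script was tested on simulated data. Alternatives covered DESeq2 1.42.0, RLE scaling, library size alone, no filter, the libraries of 2 groups only, the replicate block, the adjusted p alone and each library left out.

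The genes and lists were chosen with earlier results of these data known. Values in every library are given for genes called in 1 or more comparisons and for SDP1, PXA1 and KAT2, and also for ACX2, MFP2, CAT3 and GLI1, which were chosen after their values were seen. Other genes are given by means or ranges, and other lists by counts and up to 3 called genes per comparison, with ICL, MLS, PCK1 and CSY3 added after their values were seen. A called gene of these lists is not reported here. Upstream sequences and overlapping genes came from RefSeq's TAIR10.1 (35 of 35 genes matched). Figures were drawn with matplotlib 3.10.9 in Python 3.11.15.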

Additional observations from a re-analysis of the deposited data

Results flagged for a closer look

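A single library stood far from the other 3 of its group in 6 of 132 groups examined over the 33 tested genes, where chance gives about 1 in 20. ACX1 stood at 118 CPM in dog1-3 NaCl replicate 4 against 83.02 to 88.7 CPM in the others, and at 90.4 CPM in WT NaCl replicate 2 against 108 to 112 CPM. ACX4 stood at 111 CPM in WT mock replicate 2 against 119 to 120.4 CPM. ACX5 stood at 6.87 CPM in dog1-3 mock replicate 3, on 12 reads, against 3.20 to 3.67 CPM. MFP2 stood at 758 CPM in dog1-3 mock replicate 4 against 634 to 645 CPM, and PEX14 at 140 CPM in dog1-3 NaCl replicate 4 against 107 to 113 CPM.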

How the results depend on the processing

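Of the 43 differences of single genes past the adjusted p, 18 held under every alternative and 0 changed sign. Of these 43, 34 were kept with DESeq2, 24 with library size alone, 39 without the filter, 40 with the libraries of the 2 groups only, and 43 with RLE scaling and with the replicate block. With single libraries left out, 46 refitted values missed the limit. Differences that newly passed under an alternative are not in these numbers. With library size alone, SDP1, LACS7, ECHIA and CAT2 newly passed as lower in dog1-3 in both treatments. Of 22 differences of other named genes, 18 held throughout; PMDH2 in mock was lost under 8 of 14 alternatives.

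With the adjusted p alone and no fold limit, the genes called up and down became 10 and 2 for salt in dog1-3, 15 and 1 in WT, 3 and 2 for dog1-3 against WT in NaCl, and 6 and 4 in mock. With library size alone, called genes became 0 up and 2 down for salt in dog1-3, and 1 was called down for dog1-3 against WT in each treatment. Over all genes, 485 were then called up and 1751 down for salt in dog1-3. For dog1-3 against WT, 2252 of all genes were called down in NaCl and 1963 in mock. Of the genes past the adjusted p, that scaling left 5 up for salt in dog1-3, 7 up and 3 down in WT, 1 up and 15 down for dog1-3 against WT in NaCl, and 2 up and 9 down in mock. The matching counts over all genes are given with the results above. The median log2FC of all genes then lay between -0.25 and -0.12. With DESeq2, 0 genes were called down or fell with salt in either genotype, and 3 were higher in dog1-3 in mock. Without the filter on low counts, 0 were called down and 1 fell with salt in dog1-3.

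With single libraries left out, the called genes ranged from 1 to 3 up and 0 to 2 down for salt in dog1-3, 1 to 2 up and 0 to 1 down in WT, 1 to 2 up for dog1-3 against WT in NaCl, and 1 to 2 up in mock. The genes past the adjusted p ranged from 8 to 12 up and 0 to 2 down for salt in dog1-3, 13 to 17 up and 0 to 2 down in WT, 3 up and 1 to 3 down for dog1-3 against WT in NaCl (1 down without dog1-3 NaCl replicate 1), and 3 to 6 up and 2 to 4 down in mock (3 up without dog1-3 mock replicate 1 or 4, 2 down without WT mock replicate 1).

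The labels give all groups the same replicate numbers. Libraries of the same number did not deviate together over the tested genes, with 0 of 24 pairs over a correlation of 0.1 and a highest of 0.0937. These correlations do not show whether libraries of the same number were handled together, and the main test had no replicate block. With a replicate block, 4 genes instead of 2 were lower in dog1-3 in NaCl, and the other counts changed by less than 1.5-fold. ACX5, BOU and KAT1, the genes with the fewest reads among those tested, are the least precise.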
